A study of Mus musculus with 56 samples.

Results

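Metabotropic glutamate receptors are the G protein-coupled receptors for the transmitter glutamate, and the Homer proteins are scaffolds of the postsynaptic density that bind some of them. The genes described here are Grm2, Grm3, Grm4, Grm5, Grm7, Grm8, Homer1, Homer2 and Homer3. They were chosen by name, as 9 genes of the 15777 genes in the brain expression table. They were followed through RNA-seq of mouse tissues and cells with reduced Fmr1, the gene of the RNA-binding protein FMRP whose loss causes fragile X syndrome.

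The series holds 56 mouse samples. Cortex, hippocampus, cerebellum, liver, muscle and testis each came from 3 wild-type (WT) and 3 Fmr1 knockout (KO) samples, and the labels used here name tissue and genotype with no age, sex or strain. Cultured N2a cells, a mouse neuroblastoma line, received a non-targeting siRNA (siNT, 2 samples) or an siRNA against Fmr1 (siFmr1, 3 samples). In a second N2a experiment, 5 groups of 3 samples were co-transfected with an siRNA and a plasmid. The siRNAs siNT, siFmr1 and siMbnl1 were each combined with pcDNA. A further group received siFmr1 and a FLAG-tagged MBNL1 of the nucleus (nMBNL1), and the last siMbnl1 and a FLAG-tagged MBNL1 of the cytosol (cMBNL1). MBNL1 is a splicing factor of the muscleblind family, and pcDNA stands in the labels as the plasmid without MBNL1. Nothing in the labels ties samples to separate animals or cultures, so the p-values measure the spread between these samples, which may be technical.

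The receptors fall into groups by coupling and position at the synapse. Grm5 belongs to group I, which sits mainly on dendrites and signals through Gq, phospholipase C and release of calcium from internal stores. Grm2 and Grm3 (group II) and Grm4, Grm7 and Grm8 (group III) inhibit adenylyl cyclase through Gi/o, and most of them act at axon terminals to restrain transmitter release. Grm3 is also expressed by astrocytes, and Grm4 is known for its place on the parallel fibres of cerebellar granule cells. Long Homer proteins bind the tail of group I receptors with an EVH1 domain and join each other through a coiled coil. They thereby link the receptors to IP3 receptors and Shank. A short, activity-induced Homer1 form lacks the coiled coil, and the gene-level values below pool it with the long forms. Long-term depression driven by group I receptors is enlarged at hippocampal synapses of Fmr1 knockout mice, which is why these genes draw interest in fragile X syndrome.

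The results on splicing turn on 3 exons, a Homer1 and a Homer3 exon whose use varied and a Grm5 exon that defines a named receptor form. Each is shown with 20 bases of the annotated neighbouring exon on both sides in lower case and the exon itself in capitals, from GRCm38 on the strand of the gene. The Homer1 exon (chr13:93386345-93386380, plus strand) is coding and adds 12 codons. The Homer3 exon (chr8:70285394-70285550, plus strand) is coding, has a length that is not a multiple of 3, and lies in the part of the gene that encodes the EVH1 domain. The Grm5 exon (chr7:88116193-88116288, plus strand) is the 32-codon insert that distinguishes mGluR5b from mGluR5a.
Homer1 36-base exon: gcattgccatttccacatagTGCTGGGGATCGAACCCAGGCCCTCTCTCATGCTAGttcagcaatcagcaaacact
Homer3 157-base exon: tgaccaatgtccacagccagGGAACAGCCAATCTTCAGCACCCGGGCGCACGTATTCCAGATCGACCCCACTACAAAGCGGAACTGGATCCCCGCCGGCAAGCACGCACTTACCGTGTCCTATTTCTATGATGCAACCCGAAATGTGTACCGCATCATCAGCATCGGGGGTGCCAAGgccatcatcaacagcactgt
Grm5 96-base exon: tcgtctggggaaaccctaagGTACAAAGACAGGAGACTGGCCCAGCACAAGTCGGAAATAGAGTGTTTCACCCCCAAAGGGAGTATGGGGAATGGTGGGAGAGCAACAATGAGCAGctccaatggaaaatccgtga

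All 9 genes are listed in the brain table, whose samples hold 26264368 to 41384652 counted reads. The other tables are shallower, at 13230785 to 16268865 counted reads, and list fewer of the genes. Liver lists 4 (Grm8 and the Homers), testis 6 (Grm4, Grm5, Grm7 and the Homers), and muscle and the first N2a experiment list the Homers alone. The co-transfection table lists all 9 as normalised counts, with unknown depth. As a check of the labels, Fmr1 fell in every brain region, by 1.97 on the log2 scale in cortex, by 1.90 in hippocampus and by 1.80 in cerebellum. It was also lower in testis (log2 fold change -1.95) and liver (-1.61), and in siFmr1 with pcDNA (-2.37). Mbnl1 fell by 1.56 in siMbnl1 with pcDNA, and its reads rose with the MBNL1 plasmids, by 1.47 in siFmr1 with nMBNL1 and by 2.16 in siMbnl1 with cMBNL1, all against siNT with pcDNA. Markers fitted the labelled tissues: neuron markers summed to 5056 to 8503 CPM in the brain samples, and hepatocyte (72044 to 100513 CPM), muscle (88895 to 117408 CPM) and spermatid markers (4680 to 5140 CPM) were high in their own tissue. In muscle Fmr1 missed the threshold (-0.61, adjusted p = 0.0734 by edgeR's quasi-likelihood test), and in the first N2a experiment it did too (-2.25, adjusted p = 1), with a level of 77.7 and 22.4 in the siNT samples, in counts scaled to library size (CPM).

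The 3 brain regions carried different sets of these transcripts. In TPM, a unit of transcript abundance that corrects for gene length and so allows genes to be compared, the WT sum over the 9 genes was 873.0 ± 96.7 in cerebellum, 522.5 ± 16.3 in cortex and 444.2 ± 20.7 in hippocampus (mean ± SD, n = 3). Grm4 made up 48.0% ± 2.27 and Homer3 38.2% ± 0.248 of the cerebellar sum. In cortex Homer1 led with 38.0% ± 2.54, followed by Grm3 with 17.6% ± 1.02 and Grm5 with 17.3% ± 2.74, which do not differ beyond their spread. In hippocampus Grm5 led with 28.5% ± 0.145, ahead of Homer1 with 19.3% ± 0.601 and Homer3 with 12.5% ± 1.41.

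**Figure D1:**
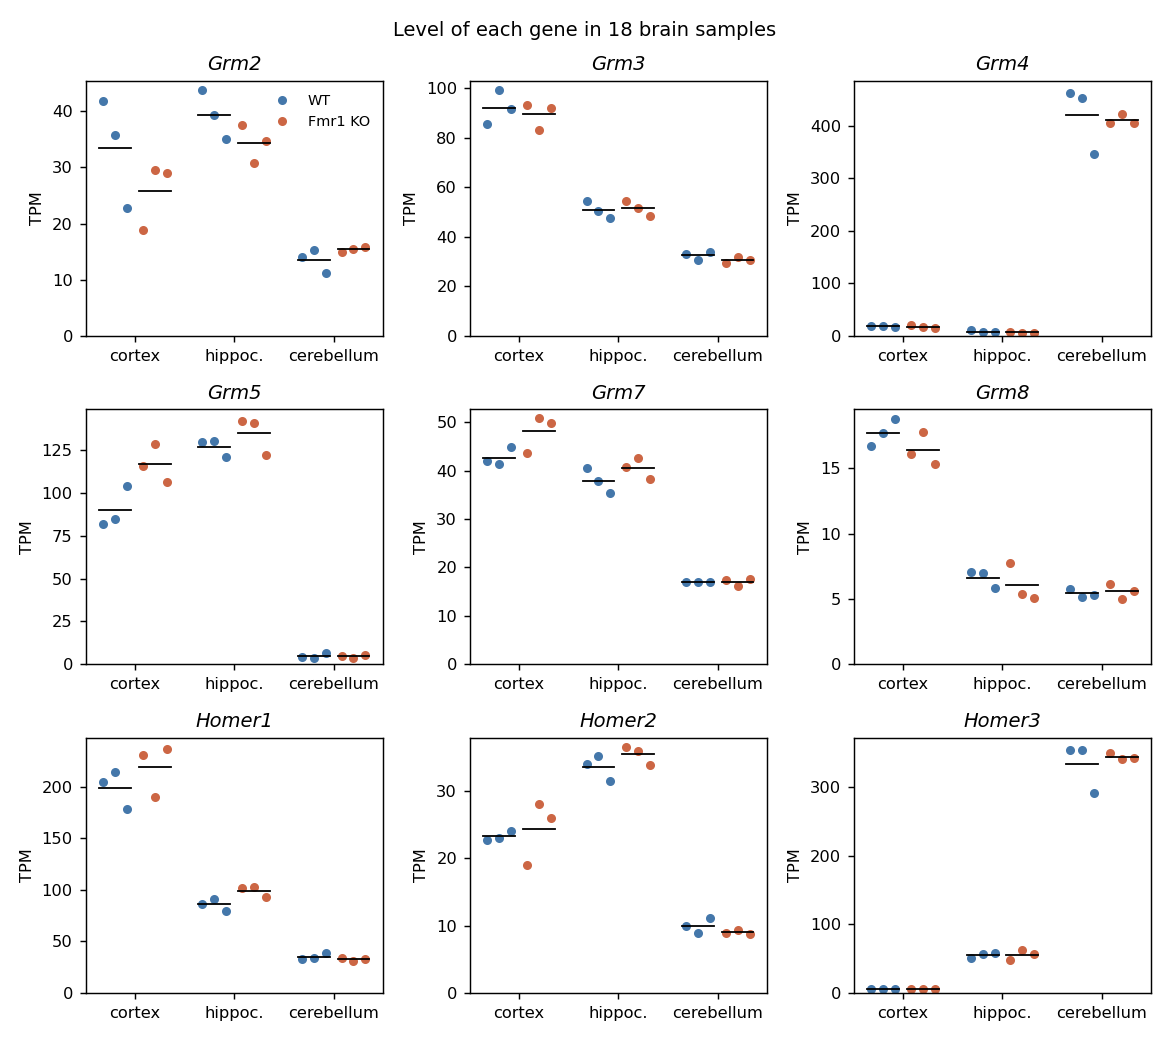
Levels of the 9 genes in the 3 brain regions. Each panel plots 1 gene in TPM on the vertical axis, with 3 wild-type and 3 Fmr1 knockout samples per region as points and group means as lines. Grm4 and Homer3 stand out in cerebellum, Grm5 in cortex and hippocampus, and Homer1 in cortex.

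Between WT cortex and WT cerebellum, 9 of the 9 genes passed the threshold (edgeR's quasi-likelihood test, Benjamini-Hochberg adjusted p under 0.05 over all genes and a log2 difference no smaller than 1 in either direction), where 25% of all tested genes did. Of these, 7 were higher in cortex and 2, Grm4 and Homer3, higher in cerebellum. Between hippocampus and cerebellum 7 of 9 passed against 24.4% of all genes, 5 of them higher in hippocampus and the same 2 genes, Grm4 and Homer3, higher in cerebellum. Cortex and hippocampus were closer, with 4 of 9 against 9.98% of all genes. Grm4, Grm8 and Homer1 were higher in cortex and Homer3 was higher in hippocampus. The median log2 difference over the 9 genes was 1.45 for cortex against cerebellum and 1.27 for hippocampus against cerebellum, against -0.02 and -0.01 over all tested genes. The 3 comparisons share WT samples.

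Grm5, the group I receptor, read 81.78, 84.71 and 103.84 TPM in WT cortex, 129.69, 130.15 and 120.45 in WT hippocampus, and 4.29, 3.92 and 6.53 in WT cerebellum. Each hippocampal sample was above each cortical one, and the cerebellar samples lay far below both. Grm5 was higher in cortex than in cerebellum by 4.31 ± 0.16 (log2 fold change ± SE, adjusted p = 7.32e-10) and higher in hippocampus than in cerebellum by 4.80 ± 0.17 (adjusted p = 3.44e-10). The cortex to hippocampus difference was -0.49 ± 0.14 (adjusted p = 0.0135), short of the fold minimum.

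Among the group II receptors, Grm2 read 41.74, 35.74 and 22.82 TPM in WT cortex, 43.74, 39.29 and 35.02 in WT hippocampus, and 14.13, 15.22 and 11.22 in WT cerebellum. Cortex and hippocampus overlapped (log2 difference -0.23 ± 0.19, adjusted p = 0.359), and both exceeded cerebellum, by 1.42 ± 0.20 and 1.65 ± 0.20. Cortical Grm2 had the widest relative spread of the 9 genes in that region, and in the KO samples its cortex to cerebellum difference was 0.81, under the minimum. Grm3 read 85.67, 99.36 and 91.46 TPM in WT cortex, 54.26, 50.36 and 47.55 in hippocampus, and 33.25, 30.71 and 34.05 in cerebellum. The 3 regions did not overlap. Grm3 was higher in cortex than in cerebellum by 1.61 ± 0.07, and its differences of 0.86 between cortex and hippocampus and 0.75 between hippocampus and cerebellum had adjusted p-values of 2.46e-06 and 2.2e-06 but stayed under the fold minimum.

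The group III receptors went in different directions. Grm4 read 462.79, 453.79 and 345.95 TPM in WT cerebellum, 18.4, 18.84 and 17.69 in WT cortex, and 10.79, 7.23 and 6.9 in WT hippocampus. The third cerebellar sample was lower than its companions yet far above every forebrain sample. The log2 difference was -4.41 ± 0.17 for cortex against cerebellum and -5.56 ± 0.18 for hippocampus against cerebellum. Granule cell markers (Gabra6, Neurod1, Cbln1) summed to 1951 to 2104 CPM in WT cerebellum and 18.8 to 36.4 CPM in the WT forebrain samples, and their part in the Grm4 difference was not tested. In these bulk samples, fewer cells of a type and less RNA per cell cannot be told apart. Grm7, a receptor of the presynaptic active zone, read 41.88, 41.24 and 44.8 TPM in WT cortex, 40.59, 37.74 and 35.33 in hippocampus, and 16.94, 16.95 and 16.94 in cerebellum. Its forebrain regions lay close together (0.17 ± 0.06) and both exceeded cerebellum, by 1.45 ± 0.07 and 1.27 ± 0.07. Grm8 read 16.68, 17.68 and 18.82 TPM in WT cortex, 7.1, 7.02 and 5.83 in hippocampus, and 5.77, 5.18 and 5.34 in cerebellum. It was higher in cortex than in hippocampus by 1.42 ± 0.10 and than in cerebellum by 1.82 ± 0.10. Its hippocampal and cerebellar levels differed by 0.40 ± 0.10, under the fold minimum.

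Each Homer had its highest level in a different region. Homer1 read 204.93, 213.72 and 178.14 TPM in WT cortex, 86.58, 91.04 and 79.73 in WT hippocampus, and 33.27, 33.92 and 38.35 in WT cerebellum. It fell from cortex to hippocampus to cerebellum with no overlap. The differences were 1.09 ± 0.06 (0.97 in the KO samples, just under the minimum), 2.49 ± 0.07 for cortex against cerebellum and 1.39 ± 0.06 for hippocampus against cerebellum. Homer2 read 34.01, 35.16 and 31.47 TPM in WT hippocampus, 22.76, 23.04 and 24.0 in cortex, and 9.94, 8.82 and 11.13 in cerebellum, so hippocampus was its highest region. Homer3 read 354.6, 353.86 and 292.03 TPM in WT cerebellum, 50.26, 57.27 and 58.07 in hippocampus, and 6.13, 5.68 and 6.05 in cortex. Its order was the reverse of that of Homer1. The log2 difference of Homer3 was -5.70 ± 0.11 for cortex against cerebellum, -3.22 ± 0.11 for cortex against hippocampus and -2.48 ± 0.09 for hippocampus against cerebellum. Homer3 is known as a Purkinje cell Homer, and the Purkinje markers Pcp2, Car8 and Calb1 summed to 3527 to 3680 CPM in WT cerebellum against 139.3 to 183.1 CPM in the WT forebrain samples. Their part in the Homer3 difference was not tested.

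Other genes of the pathway also differed by region. Of 32 tested signalling genes (G proteins, phospholipases, kinases, Shanks and other partners), 13 were higher and 3 lower in cortex than in cerebellum. The largest were Rgs4, a brake on Gq and Gi/o signalling (log2 difference 5.34), Camk2a, a synaptic kinase (4.97), Elfn1, a partner of group III receptors across the synapse (4.27), and Grasp, a group I scaffold (3.51). Between hippocampus and cerebellum 13 were again higher and 3 lower. Camk2a (5.32), Elfn1 (4.68) and Grasp (3.80) were higher in hippocampus, and Plcb4, the phospholipase of Purkinje cells, was lower there (-4.09). Between cortex and hippocampus Rgs4 (2.24) and Plcb4 (2.04) were higher in cortex, and Ncdn, a neuronal partner of group I receptors, was lower (-1.30).

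For each gene, those 2 of 11560 genes with the highest Pearson correlation of log2 CPM over the 18 brain samples were taken as most alike. The points share their regions, so the values describe regional pattern only. For Grm5 they were D430019H16Rik (r = 0.999) and Scn3a (0.998). Chn2 (0.998) and Slc38a1 (0.997) were closest to Grm4, and Il16 (0.997) and Crtc3 (0.994) to Homer3. Rgs4 (0.996) and Hace1 (0.994) were closest to Homer1, Sertm1 (0.996) and Syt17 (0.994) to Homer2, and Pcdh7 (0.997) and A830010M20Rik (0.995) to Grm3. Grm7 was most like Snx10 (0.997) and Dbpht2 (0.996), Grm8 most like Gsg1l (0.987) and Stmn1 (0.980), and Grm2 most like Olfm1 (0.966) and Fbxo31 (0.965).

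The next comparison asked whether these levels changed with the loss of Fmr1. In the brain, none of the 9 genes passed an adjusted p of 0.05 by edgeR's quasi-likelihood test in any region, and the 27 log2 fold changes of KO over WT lay between -0.39 and 0.36. In cortex this was 0 of 9 against 0.0203% of all tested genes. The 2 of 9 at an unadjusted p under 0.05 match the share of all genes there (3110 of 14802). DESeq2 called 1 of 9 against 9.47% of its genes. In hippocampus it was 0 of 9 against 0.209%, with 1 at an unadjusted p under 0.05 (1852 of 14843 of all genes) and 1 called by DESeq2 against 2.53%. In cerebellum it was 0 of 9 against 0.226%, with 0 at an unadjusted p under 0.05 and 0 called by DESeq2.

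Grm5 had the largest rise in cortex. Its WT samples read 81.78, 84.71 and 103.84 TPM and its KO samples 115.4, 128.56 and 106.37. Every KO sample was above every WT sample, with 1 WT sample close to the lowest KO sample. In CPM the means were 298.0 ± 37.5 and 381.4 ± 32.8, a log2 fold change of 0.36 ± 0.10 (adjusted p = 0.106 by edgeR). DESeq2 gave an adjusted p of 0.0079, and edgeR without Cortex WT 3, the least deep brain library, gave 0.0231 with a change of 0.47. Grm5 was the 1 gene of the 9 whose groups did not overlap in cortex, where 25.7% of all genes had groups that did not overlap. In hippocampus the Grm5 change was 0.10 ± 0.07 (WT 129.69, 130.15 and 120.45 TPM, KO 141.47, 140.56 and 121.63) and in cerebellum -0.00 ± 0.17, and the groups overlapped in both. The neuron markers summed to 7570 to 8503 CPM in WT cortex and 7046 to 8160 CPM in KO cortex, and their part in the Grm5 values was not tested.

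Homer1 had the largest rise in hippocampus. It read 86.58, 91.04 and 79.73 TPM in the WT samples and 101.83, 102.38 and 92.82 in the KO samples. The KO samples lay above all WT samples, by a small margin at the nearest pair. In CPM the means were 132.4 ± 5.75 and 155.8 ± 11.3, a log2 fold change of 0.23 ± 0.06 (adjusted p = 0.228 by edgeR, 0.0221 by DESeq2). Homer1 was again 1 of 9 without overlap, against 19.1% of all genes in this region. In cortex Homer1 overlapped between genotypes (KO 230.74, 189.79 and 236.86 TPM, log2 fold change 0.12 ± 0.09), as it did in cerebellum (34.02, 30.81 and 32.97 TPM, -0.11 ± 0.06). Choroid plexus markers summed to 29.6 to 4175 CPM in WT hippocampus and 36 to 4601 CPM in KO hippocampus. Their part in the Homer1 values was not tested.

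The other receptors and Homers showed smaller or more scattered values. Grm2 in KO cortex read 18.89, 29.59 and 29.0 TPM, overlapping the WT samples (log2 fold change -0.39 ± 0.23, adjusted p = 0.362). In cerebellum Grm2 was 15.02, 15.41 and 15.87 TPM in KO samples, against WT values that overlapped it (0.22 ± 0.11, adjusted p = 0.614). Grm4 in KO cerebellum, at 404.88, 422.02 and 406.41 TPM, lay within the range of the WT samples (-0.01 ± 0.09). Grm7 in KO cortex read 43.64, 50.85 and 49.86 TPM (0.16 ± 0.07, adjusted p = 0.231). Homer3 in KO cerebellum read 349.47, 341.19 and 342.4 TPM (0.07 ± 0.07), again inside the WT range. Grm3, Grm8 and Homer2 stayed within 0.13 of 0 on the log2 scale in all 3 regions. In cerebellum the groups of all 9 genes overlapped, where 14.5% of all genes had groups that did not.

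**Figure D2:**
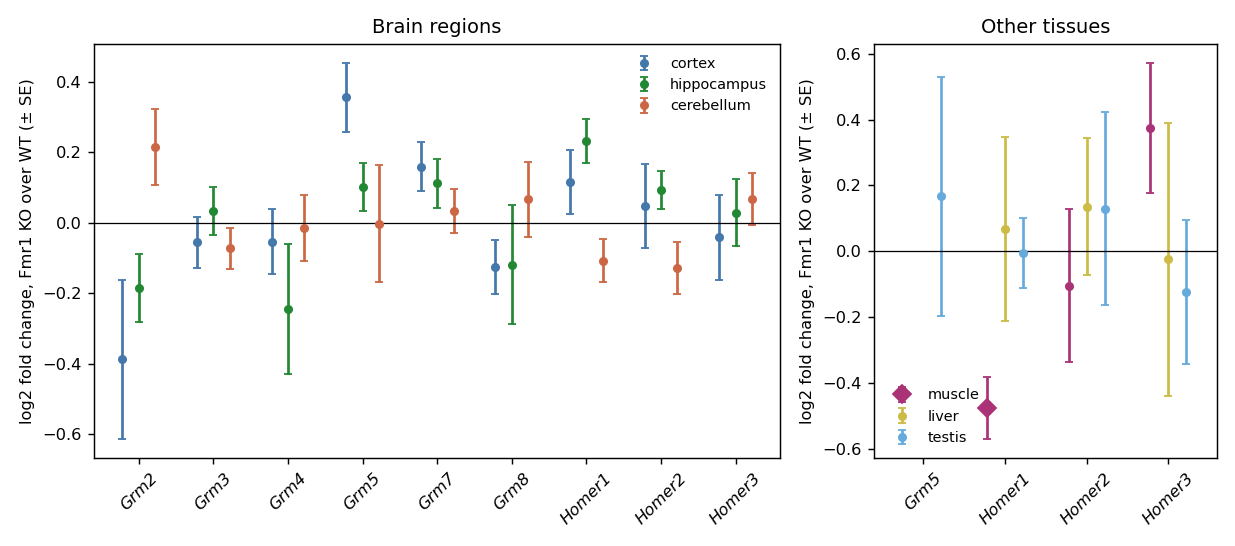
Log2 fold change of Fmr1 knockout over wild type for each gene, with 1 SE as bars. The left panel holds the 3 brain regions and the right panel muscle, liver and testis; a diamond marks the 1 value with an adjusted p under 0.05, Homer1 in muscle.

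Averaged over the 3 regions, 0 of 9 genes passed by edgeR against 3.48% of all genes, and 0 by DESeq2 against 7.62%. Grm7, at 0.10 ± 0.04, was the 1 gene with an unadjusted p under 0.05, where 3267 of all 15504 genes had one (adjusted p = 0.132). Grm5 averaged 0.17 ± 0.08 (adjusted p = 0.272), which became 0.23 with an adjusted p of 0.0305 without Cerebellum WT 3. Tests of whether the KO effect differed between regions called 0 of 9 for cortex against hippocampus (0% of all genes, 0 members at an unadjusted p under 0.05). They also called 0 of 9 for cortex against cerebellum (0%, 1 at an unadjusted p under 0.05) and for hippocampus against cerebellum (0.00645%, 1 likewise), and DESeq2 called 0 in each. The Grm2 effect was lower in cortex than in cerebellum by 0.60 ± 0.27 (adjusted p = 0.311). The Homer1 effect was higher in hippocampus than in cerebellum by 0.35 ± 0.12 (adjusted p = 0.83).

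None of the 32 signalling genes passed in a single brain region by edgeR. Before adjustment, 7 were under 0.05 in cortex (3110 of all 14802 genes), 4 in hippocampus (1852 of 14843) and 5 in cerebellum (1276 of 14627); DESeq2 called 4, 1 and 0. In cortex and hippocampus these are the shares of all genes. Averaged over regions, 1 of the 32 passed, a share near the 3.48% of all genes. This was Map1b, a microtubule-associated protein and a classic FMRP target, which was lower in KO (log2 fold change -0.13, adjusted p = 0.02). Of 10 activity-induced genes, 1 passed in the same fit, against 3.48% of all genes. This was Fosb, which was lower (-0.38, adjusted p = 0.0262), while the median log2 fold change of the list was 0.09.

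Of the members tested in the other tissues, 3 in muscle and 4 each in liver and testis, Homer1 in muscle alone changed. Skeletal muscle uses Homer proteins at its calcium release machinery. The WT samples held 1985, 2028 and 1868 Homer1 reads and the KO samples 1501, 1540 and 1540. The groups were far apart relative to the spread within each. In CPM, WT was 142.7, 152.3 and 135.8 and KO 98.3, 109.2 and 101.7, and Homer1 fell by 0.48 ± 0.09 on the log2 scale (adjusted p = 0.0304 by edgeR's quasi-likelihood test, adjusted p = 0.001 by DESeq2). This was 1 of 3 genes tested against 4.04% of all genes, and 1 of 3 against 8.56% by DESeq2. The adjusted p rose above 0.05 without KO 1 (0.117), KO 2 (0.0681), KO 3 (0.156) or WT 2 (0.0549). In TPM, where WT was 47.76, 57.9 and 51.6 and KO 42.32, 43.87 and 46.17, the groups still did not overlap but the nearest samples lay close. Homer2 (-0.10 ± 0.23, adjusted p = 0.803) and Homer3 (0.37 ± 0.20, adjusted p = 0.262) did not pass.

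Several activity-induced genes were lower in the same KO muscles, 4 of the 8 tested, where 131 of all 12688 genes were. These were the transcription factors Egr1 (log2 fold change -4.25, adjusted p = 0.0102), Fos (-4.15, 0.0262) and Egr2 (-3.14, 0.0451) and the synaptic regulator Arc (-2.57, 0.0381). The list summed to 500.5 to 2807 CPM in WT and 454.4 to 791.0 CPM in KO muscle, and 1 WT sample lay among the KO samples. The scaffold gene Shank3, whose protein binds Homer, was higher (0.69, adjusted p = 0.0368). Muscle markers (Acta1, Ckm, Myh4) summed to 100539 to 117408 CPM in WT and 88895 to 107435 CPM in KO, with 0 of 3 called. Microglia and macrophage markers (Cx3cr1, Csf1r, P2ry12) summed to 22 to 30.9 CPM in WT and 40.5 to 46.7 CPM in KO, with 1 of 3 called higher. Of the neuron markers 1 of 5 is listed, at no more than 1.31 CPM. The part of these lists in the Homer1 value was not tested.

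Liver and testis held low levels. In liver 0 of 4 genes passed against 0.411% of all genes, with 0 at an unadjusted p under 0.05 and 0 by DESeq2. Homer2 was the most read, with 387, 761 and 555 reads in WT and 664, 474 and 652 in KO (0.14 ± 0.21), and Homer1 followed with 92, 187 and 203 against 167, 160 and 161 (0.07 ± 0.28). The first WT liver sample was the lowest for both genes. Grm8 and Homer3 had 10 to 28 reads a sample. In testis 0 of 4 tested genes passed against 4.27%, again with 0 at an unadjusted p under 0.05 and 0 by DESeq2. Homer1 was the highest there, with 260, 282 and 269 reads in WT and 220, 297 and 307 in KO (-0.00 ± 0.11). Grm5 had 9 to 21 reads a sample, and Grm4 (4 to 12 reads) and Grm7 (5 to 14 reads) were too low to be tested. Among the signalling genes in testis, the scaffold Shank2 (-0.80, adjusted p = 0.000114) and Elfn1 (-0.24, adjusted p = 0.0471) were lower. The activity-induced genes were low in KO liver as in KO muscle. In liver 0 of 5 tested had a positive log2 fold change (median -3.66), and 1, Dusp1, passed by edgeR (-3.03, adjusted p = 0.0266). The list summed to 131.0 to 2659 CPM in WT and 78.1 to 229.7 CPM in KO liver, which overlapped.

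N2a cells expressed Homer1 and Homer3 and almost no receptor of this family. In the co-transfection table the receptors reached at most 5.7 normalised counts, and Homer2 ranged from 2.1 to 17.0. In the first N2a experiment 0 of 2 tested genes passed by edgeR against 0% of all genes (0 members at an unadjusted p under 0.05, 0 by DESeq2). Homer1 read 29.8 and 17.3 CPM with siNT and 34.5, 41.4 and 24.5 with siFmr1 (0.51 ± 0.40). Homer3 read 29.0 and 40.6 CPM with siNT and 20.7, 29.3 and 35.9 with siFmr1 (-0.28 ± 0.36). Both genes overlapped between the groups.

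In the co-transfected cells, siMbnl1 was accompanied by less Homer1 and more Homer3, while siFmr1 with pcDNA gave no call. Homer1 read 1216, 1288 and 930.5 normalised counts with siNT and pcDNA, and 851.4, 745.7 and 925.8 with siMbnl1 and pcDNA. The groups did not overlap, but the lowest control and the highest siMbnl1 sample were nearly equal. On the log2(normalised count + 1) scale the change was -0.44 ± 0.12 (adjusted p = 0.0101 by limma over all 5 groups). With siMbnl1 and cMBNL1 the 3 samples read 698.8, 877.4 and 768.8, all below the controls (-0.54 ± 0.12, adjusted p = 0.00222). With siFmr1 and pcDNA, 922.8, 1009 and 1027 overlapped the controls (-0.20 ± 0.12, adjusted p = 0.2), as did 940.4, 993.0 and 1070 with siFmr1 and nMBNL1 (-0.18 ± 0.12, adjusted p = 0.24).

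Homer3 read 1070, 974.0 and 1089 normalised counts with siNT and pcDNA. It was higher in all samples with siMbnl1, at 1227, 1341 and 1240 with pcDNA (0.28 ± 0.07, adjusted p = 0.00843) and at 1248, 1225 and 1289 with cMBNL1 (0.27 ± 0.07, adjusted p = 0.0117). With siFmr1 and nMBNL1 it was lower, at 848.1, 853.0 and 852.2 (-0.29 ± 0.07, adjusted p = 0.00504). With siFmr1 and pcDNA it read 943.6, 871.5 and 1031 and overlapped the controls (-0.14 ± 0.07, adjusted p = 0.155). The siMbnl1 samples and the nMBNL1 samples thus lay on opposite sides of the controls, while Mbnl1 reads were low in the first siMbnl1 group and high in the group with cMBNL1.

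The count of members called was 2 of 4 tested with siMbnl1 and pcDNA against 32.8% of all genes, and 2 of 4 with siMbnl1 and cMBNL1 against 33.7%. It was 1 of 4 with siFmr1 and nMBNL1 against 41.1%, and 0 of 4 with siFmr1 and pcDNA against 37%, with 0 at an unadjusted p under 0.05. These 4 comparisons share the siNT and pcDNA samples, and calls were frequent over all genes, so the shares are not particular to these genes. Adding nMBNL1 to siFmr1 cells called 0 of 4 against 1.76%, with 0 at an unadjusted p under 0.05 (Homer3 -0.15 ± 0.07, adjusted p = 0.299). Adding cMBNL1 to siMbnl1 cells called 0 of 4 against 2.24%, likewise with 0 at an unadjusted p under 0.05 (Homer1 -0.11 ± 0.12, adjusted p = 0.665). Where only the 2 groups compared were fitted, the adjusted p was 0.0722 for Homer1 and 0.0833 for Homer3 with siMbnl1 and pcDNA, and 0.0548 for Homer3 with siFmr1 and nMBNL1. With siMbnl1 and cMBNL1 it was 0.0822 for Homer3 and 0.0325 for Homer1.

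**Figure D3:**
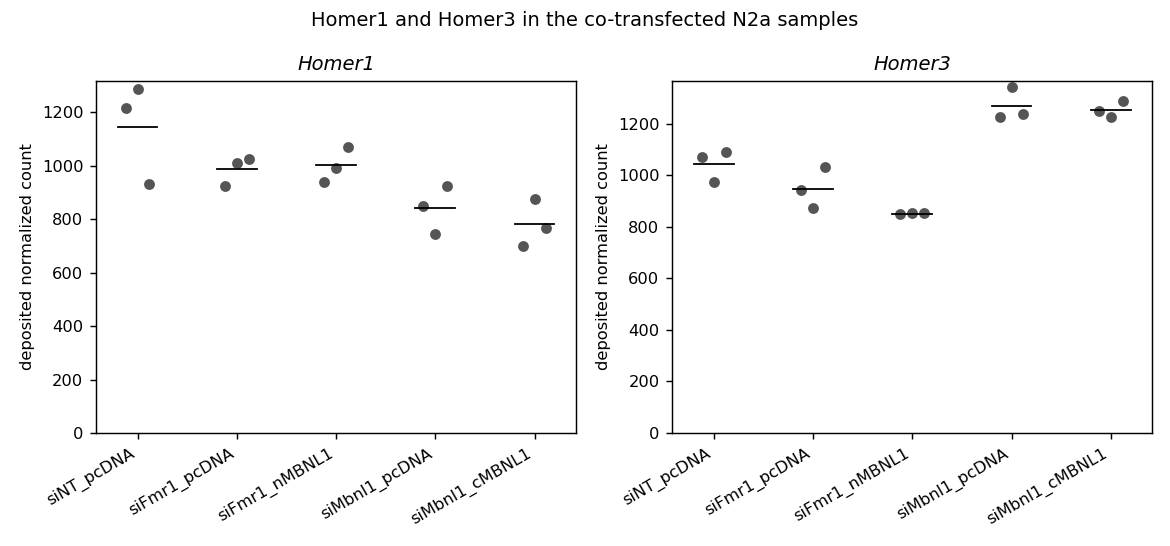
Homer1 and Homer3 in the 5 groups of co-transfected N2a cells, in normalised counts on the vertical axis. Points are the 3 samples of a group and lines their means; the siMbnl1 groups lie lowest for Homer1 and highest for Homer3.

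Of the signalling genes, 29 were tested in these cells, and the shares called lay near those of all genes given above (37%, 32.8%, 41.1% and 33.7%). Over all genes slightly more rose than fell in each comparison, 3164 against 2849 with siFmr1 and pcDNA, for example. The signalling list was less even in each, a difference that was not tested. With siFmr1 and pcDNA 10 rose and 1 fell, led by the scaffolds Shank3 (log2 fold change 1.41) and Grasp (1.09), Rgs4 (0.92) and Arc (0.90). With siMbnl1 and pcDNA 6 rose and 2 fell, led by Rgs4 (0.96) and Grasp (0.84). With siFmr1 and nMBNL1 9 rose and 1 fell, led by the scaffold Dlgap1 (1.69) and Rgs4 (1.04), and with siMbnl1 and cMBNL1 8 rose and 2 fell, led by Rgs4 (1.17) and Grasp (0.99). The list's median log2 fold changes were 0.22, 0.05, 0.10 and 0.13 in that order, against 0.03, 0.01, 0.04 and 0.03 over all tested genes.

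The deposited skipped-exon tables, 11 in all, hold 74 entries for 23 exons of these genes. Each gives reads over the junctions that include or skip an exon in 2 replicate sets, which the tables number 1 and 2 and do not name. For the tissues the sets are therefore given by number, with no genotype. Of the 74 entries, 69 had at least 20 junction reads per replicate on average in both sets and were retested from those reads, and in 42 of these inclusion was over 95% in both sets. The most read entry was a 247-base Grm4 exon in cerebellum (chr17:27431332-27431578, minus strand), with 2771 junction reads and 99.7% inclusion in set 1 against 99.6% in set 2. The retest, a quasi-binomial model with an adjusted p under 0.05 and a difference of at least 10 points, called 2 entries, both of the 157-base Homer3 exon in co-transfected cells.

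The co-transfection has 4 such tables, called here by the samples they are attached to in the labels. The siFmr1 table is attached to the siNT and the siFmr1 samples with pcDNA, the siMbnl1 table to the siMbnl1 samples with pcDNA, and the nMBNL1 and cMBNL1 tables to the groups that received those plasmids. Set 2 holds the same reads in the siFmr1, siMbnl1 and cMBNL1 tables, which thus share 1 reference set. Set 2 of the nMBNL1 table equals set 1 of the siFmr1 table.

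The 157-base Homer3 exon was included in 73.3%, 69.8% and 67.9% of transcripts, as estimated from junction reads, in the replicates of the shared reference set, and in 48.8%, 58.0% and 51.4% in set 1 of the siMbnl1 table. All replicates of that set 1 lay below all of the reference. The means were 52.7% ± 4.69 and 70.3% ± 2.74, a difference of -17.6 points (adjusted p = 0.00288 in the retest, over 2594 reads). This was the 1 member entry called in the siMbnl1 table, where 0.536% of all exons were. In the cMBNL1 table, set 1 read 48.1%, 44.4% and 57.0%, a mean of 49.8% ± 6.45 and a difference of -20.5 points (adjusted p = 0.0039), again 1 member entry against 0.828% of all exons. The siFmr1 table had 64.1%, 80.6% and 77.7% in set 1, which overlapped the reference (3.81 points, adjusted p = 0.512). The nMBNL1 table had 65.5%, 71.6% and 67.6% in set 1, a difference of -5.91 points from its own set 2, which is set 1 of the siFmr1 table (adjusted p = 0.343). The exon is in 5 annotated transcripts, and none of the annotated transcripts skips it. The authors' deposited table gave the same exon an FDR of 5.89e-06 for siMbnl1 and 1.56e-06 for cMBNL1, where 2.36% and 2.35% of exons met the authors' FDR with the same difference.

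Leaving out 1 replicate at a time, the difference stayed between -15.6 and -20.2 points for siMbnl1 and between -17.8 and -24.1 points for cMBNL1. With 1 replicate fewer the adjusted p was 0.508 to 0.573 for this exon, and these fits called 0 exons of any gene for siMbnl1 and at most 1 for cMBNL1. Homer3 also had a 111-base exon (chr8:70291318-70291428) with differences of -7.97 points for siMbnl1 (adjusted p = 0.207) and -7.70 for cMBNL1 (adjusted p = 0.106) with the next exon starting at 70292975, which did not pass. An entry of the same exon with the next exon starting at 70291517 had more reads (2743 and 2711) and differences of -0.95 and -0.22 points. Inclusion of the 157-base exon was 72.6%, 86.8% and 95.9% in set 1 and 62.3% and 94.0% in set 2 of the first N2a experiment, a wide and overlapping spread.

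The 36-base Homer1 exon varied between tissues more than any other exon shown here. In cortex it was included in 98.7%, 96.6% and 95.5% (set 1) and 100%, 98.3% and 97.8% (set 2), and in hippocampus in 100%, 97.7%, 92.7% and 97.4%, 94.2%, 98%. In muscle it was included in 21.5%, 19.2% and 27.0% and in 30.7%, 21.6% and 25.1%. Inclusion was thus near complete in the forebrain, and most muscle transcripts skipped the exon. Testis lay between, at 40.3%, 50.8% and 56.4% in set 1 and 53.1%, 50.3% and 66.3% in set 2. Liver read 15.3% to 44.7% in set 1 and 0% to 21.3% in set 2, on 56 reads in all and untested. The libraries of brain and other tissues were made separately, so no test was made between tissues. An annotated Homer1 transcript has an exon with the same start that runs on to base 93386744 of the chromosome, so reads at the upstream junction can come from it too.

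Between the replicate sets, no entry of the Homer1 exon passed the retest. In cerebellum set 1 read 93.3%, 88.9% and 81.2% and set 2 read 100%, 100% and 94.1%, which did not overlap (-10.2 points, adjusted p = 0.452). In the siFmr1 table, set 1 read 59.3%, 50.6% and 48.7% against 37.7%, 23.9% and 37.7% in the reference, means of 52.9% ± 5.66 and 33.1% ± 7.97. The difference of 19.8 points had an adjusted p of 0.153 on 320 reads, while the authors' deposited table gave an FDR of 0.0305, a call that 2.11% of its exons had. The siMbnl1 and cMBNL1 tables differed from the reference by 6.02 and 6.32 points, and set 1 of the nMBNL1 table differed from its set 2 by -14.0 points (adjusted p = 0.192). In the first N2a experiment, set 1 read 46.2%, 33.6% and 46.9% and set 2 read 69.0% and 64.9%, a difference of -24.7 points on 120 reads, too few to be retested; the sizes of these sets are those of the siFmr1 and siNT groups.

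The 96-base Grm5 exon was largely included in the forebrain. In cortex it was included in 97.8%, 93.3% and 87.2% of transcripts in set 1 and 92.4%, 92.3% and 95.2% in set 2. In hippocampus the values were 91.4%, 91.5% and 85.9% against 90.4%, 91.8% and 84.0%. The sets overlapped in both regions, with means of 92.7% and 93.3% in cortex and 89.6% and 88.7% in hippocampus, so most Grm5 transcripts carried the mGluR5b insert. Cerebellum had 26 reads and was not tested.

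Over all exons, the retest called 0% in cortex, 0% in hippocampus, 0% in cerebellum, 0% in the first N2a experiment, 0.13% in liver, 0.3% in muscle and 0.0873% in testis. It called 0.839% in the siFmr1 table and 0.678% in the nMBNL1 table. The members were called 0 times in each of these tables. The first N2a experiment has sets of 3 and 2 replicates, and its 0% says nothing about its exons. With 1 replicate left out of a table with 3 in each set, the retest called at most 2 exons. The deposited call held 130 of the tested exons in the first N2a experiment.

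**Figure D4:**
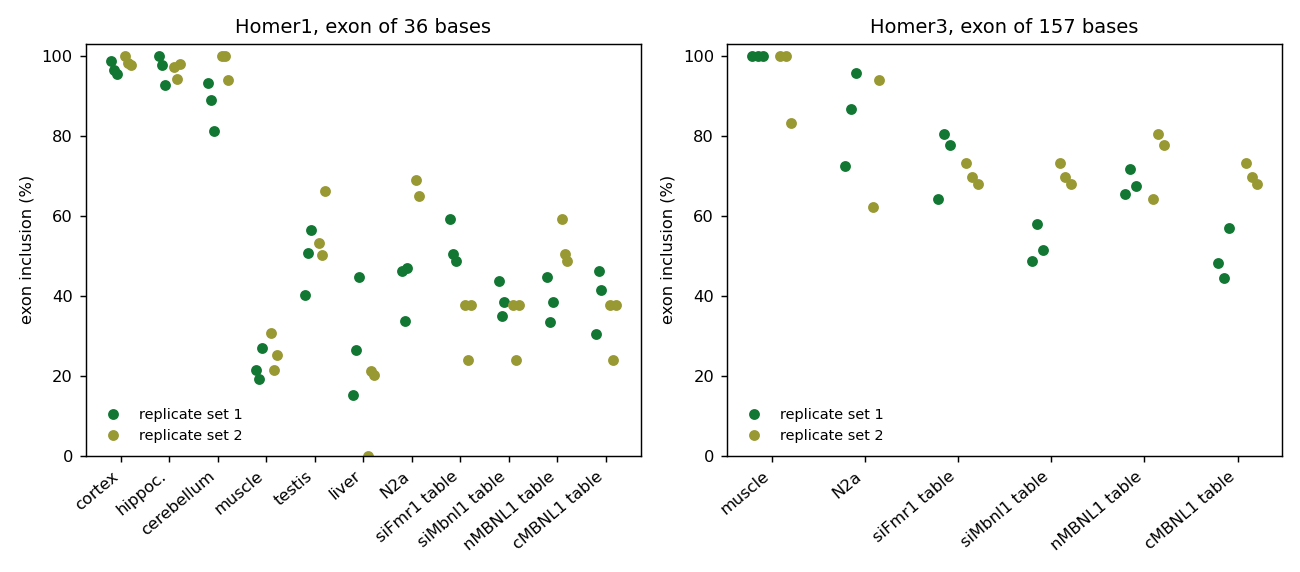
Inclusion of the 36-base Homer1 exon and the 157-base Homer3 exon, in percent, per replicate of the 2 replicate sets in each deposited table. The Homer1 exon is near 100% in cortex and hippocampus and 19.2% to 30.7% in muscle, and the Homer3 exon is lower in set 1 than in set 2 of the siMbnl1 and cMBNL1 tables.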

How the data were processed

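The members and gene lists were chosen with earlier results of these data known. The authors deposited read counts, TPM, their own log2 fold changes and adjusted p-values per gene, per the file headers; the co-transfection table holds the authors' normalised counts, a signal whose scaling is not given in the sources used here. The authors deposited rMATS junction reads and FDR p-values for skipped exons, per the file headers. The submitters' processing notes name FastQC 0.11.8, Trimmomatic 0.39, Bowtie2 2.3.5, STAR 2.6.1, RSEM 1.3.1 and DESeq2 1.16.1 with GRCm38/mm10 and no order. Per the labels' protocols, brain libraries were poly(A)-selected and directional; other libraries were made separately. A further 4 deposited sample columns matched no sample and were not used.

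Counts were tested with edgeR 4.0.16 (TMM, filterByExpr, quasi-likelihood F test, Benjamini-Hochberg over all genes) in R 4.3.3, with DESeq2 1.42.0 as alternative; CPM were TMM-scaled. Normalised counts were tested with limma 3.58.1 after adding a pseudocount of 1 and taking log2, over all 5 groups, where a gene averaged 1 or more. Junction reads were tested with a quasi-binomial model, dispersion at least 1. Scripts were tested on simulated data. Named genes are the 9 members, Fmr1, and at most the 4 called genes of largest change per list and comparison. The cell type markers and exon annotation (GENCODE on GRCm38) served as description. Some results on other genes are not reported here.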

Additional observations from a re-analysis of the deposited data

How the results depend on the processing

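Of 295 refitted counts of members or exons called, 265 stayed within 1.5 times of the reported count. DESeq2 called 1 gene (Grm5) in cortex and 1 (Homer1) in hippocampus, where edgeR called 0. Without a fold minimum, 8 genes in place of 4 differed between WT cortex and hippocampus. Fitting only the compared groups left 0 calls for siMbnl1 with pcDNA, 0 for siFmr1 with nMBNL1 and 1 for siMbnl1 with cMBNL1; without a filter, siFmr1 with nMBNL1 had 2, with Grm5 at 3.6 normalised counts or less. The deposited call added 1 Homer1 exon for siFmr1 (co-transfection). Leaving out 1 sample at a time gave 0 to 1 in cortex (1 without WT 3), 0 to 1 in muscle, 0 to 1 averaged over regions (1 without Cerebellum WT 3), and 0 to 1 for siFmr1 with pcDNA (1, Homer1, without siNT 3). The same gave 1 to 2 for siMbnl1 with pcDNA (1 without siMbnl1 2, where Homer1 had an adjusted p of 0.0576) and 1 to 2 for siFmr1 with nMBNL1 (2 without siNT 3). The exon calls for siMbnl1 and cMBNL1 fell to 0 each. With the replicate number as a block, Homer1 in muscle had an adjusted p of 0.0851 and 0 genes were called; no other count changed. Samples shared only a number, with correlations of same-numbered samples from -0.17 to -0.05 in muscle. Of single values, 24 lost and 7 gained a call and 0 reversed; 79 sign changes fell on values that were not called. The causes were not tested. The edgeR test on recovered reads of the co-transfection was not run, since its values are not whole multiples of 1 step. Depth limits Grm4, Grm5 and Grm7 in testis, Grm8 and Homer3 in liver, and the exon reads of liver and N2a cells.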
